A study of Mus musculus with 335 samples.

Results

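Wt1, Gata6 and Tbx18 encode transcription factors of the coelomic lining, the nephric ridge and the mesenchyme around them. The 3 genes were taken by name, and all 3 were among the 13448 gene entries with a symbol in the table of estimated counts. They were read in 335 single cells from wild-type mice at embryonic stage E11.5. The cells came from the AGM (aorta, gonads and mesonephros), the part of the trunk where haematopoietic stem cells (HSCs) arise. Cells were sorted one by one into wells and their RNA was sequenced by SmartSeq2, a full-length single-cell method. The groups were 88 ventral Pdgfrb+Ngfr- cells labelled as subaortic mesenchyme (Mesenchymal), 89 ventral and 93 dorsal Ngfr+Pdgfrb- cells, both labelled as sympathoadrenal (Ventral and Dorsal), and 65 EPCR+CD45+ cells labelled as blood stem and progenitor cells (HSC). Every group formed 1 sequencing pool, and no animal is named for any cell. A group therefore counts as 1 sample, no test was made, and group and pool cannot be told apart. Limits given below are exact 95% Poisson or Clopper-Pearson limits and cover counting error only.

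Wt1 is a zinc finger factor needed for the gonads, kidneys and adrenal cortex, and it is found in coelomic epithelium, mesothelium and the nephrogenic mesenchyme that will form nephrons. Gata6 is a GATA zinc finger factor of endoderm, heart, splanchnic mesenchyme and vascular smooth muscle, and acts beside Gata4 in the gonadal ridge. Tbx18 is a T-box factor of the anterior somite compartment, the epicardium, the mesenchyme around the ureter and embryonic mural cells. In the AGM the coelomic lining and the mesonephros lie beside the ventral side of the aorta.

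Wt1 lies on chromosome 2, 105126529 to 105173616, plus strand, and Tbx18 on chromosome 9, 87702800 to 87731260, minus strand (GRCm38, GENCODE annotation). The deposited table has 1 value per gene, so it does not separate splice forms. For Wt1 these include a well-known pair, which differ by 9 bases at the end of the exon that starts at 105169926. The pair encode proteins with and without the amino acids KTS between the last zinc fingers. The pair is shown because no Wt1 value below can tell these forms apart. The sequences below are the GENCODE transcript bases across that junction, 5′ to 3′, with the 9 bases (chr2:105170010-105170018) in capitals.
Wt1 long form: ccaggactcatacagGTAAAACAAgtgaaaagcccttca
Wt1 short form: ccaggactcatacaggtgaaaagcccttca

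Summed estimated counts per group ran from 68560755 in Mesenchymal to 110598792 in Ventral, and the median cell held 505916 counts in Mesenchymal, 574689 in Ventral, 1033890 in Dorsal and 943772 in HSC. The deepest Ventral cell, called Ventral 41 after its position in the group, held 18.5% of the counts of its pool, so the folds of the 3 genes between Ventral and the Mesenchymal or Dorsal pool are given with and without it. Levels of other genes are over all cells unless stated. The 17 wells with the same i7 or i5 index as Ventral 41 are called its index-sharing wells. The sort genes followed the labels by level. Pdgfrb stood at 127 counts per 1000000 (CPM) in Mesenchymal, 1.58 in Ventral, 2.05 in Dorsal and 0.031 in HSC, and Ngfr at 7.32, 90.9, 281 and 0.19 CPM in the same groups. The Ngfr+ pools also held blood cells: Ptprc, which encodes CD45, had at least 5 counts in 11 of 89 Ventral and 16 of 93 Dorsal cells.

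Wt1 differed by less than 2-fold between the Mesenchymal and the Ventral pool, and was lower in the Dorsal and HSC pools. The Mesenchymal level was 17.1 CPM (95% limits 16.1 to 18.1) and the Ventral level 14.2 CPM (13.5 to 14.9). Dorsal stood at 4.70 CPM (4.30 to 5.12) and HSC at 0.51 CPM (0.37 to 0.69). The log2 ratio of (CPM + 1), used for every log2 fold below, was 0.25 for Mesenchymal over Ventral. Without Ventral 41, which held 1.41 Wt1 counts, Ventral stood at 17.4 CPM (16.6 to 18.3) and the log2 fold at -0.03, so the order of these neighbours turned with 1 cell. The log2 fold for Ventral over Dorsal was 1.41, and 1.69 without Ventral 41.

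The Dorsal level of Wt1 rested on 1 cell. Dorsal 61 held 425 of the 509 Dorsal counts, 83.5%. Without it, Dorsal stood at 0.79 CPM (0.63 to 0.98). The next Dorsal cells held 14.1, 11.7 and 7.86 counts. Among the 17 Dorsal wells with an index in common with Dorsal 61, 10 had any Wt1 value above 0, against 22 of the 75 other wells, and whether the shared index contributes was not tested.

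Gata6, on chromosome 18 from 11052064 to 11085635 on the plus strand, had its highest level in the Mesenchymal pool and no count in the Dorsal one. Mesenchymal stood at 91.2 CPM (88.9 to 93.5), Ventral at 4.12 CPM (3.75 to 4.52) and HSC at 1.5 CPM (1.24 to 1.79). In Dorsal it had 0 counts in 93 cells, against a floor of 3 counts that corresponds to 0.028 CPM. The log2 fold was 4.17 for Mesenchymal over Ventral, and 4.03 without Ventral 41. Against the floor of 3 counts over the Dorsal pool, Gata6 was at least 149-fold higher in Ventral (168-fold without Ventral 41) and at least 3295-fold higher in Mesenchymal.

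Tbx18 was also highest in the Mesenchymal pool, and its Ventral level belonged mostly to 1 cell. Mesenchymal stood at 68.4 CPM (66.5 to 70.4), Ventral at 21.6 CPM (20.7 to 22.4), Dorsal at 0.33 CPM (0.23 to 0.46) and HSC at 0.088 CPM (0.036 to 0.18). Ventral 41 held 2033 of the 2385 Ventral counts, 85.3%. Without it, Ventral stood at 3.90 CPM (3.50 to 4.33). The log2 fold for Mesenchymal over Ventral was 1.62 with Ventral 41 and 3.82 without it. For Ventral over Dorsal it was 4.08 with Ventral 41 and 1.88 without it. Of its 17 index-sharing wells, 0 reached 5 Tbx18 counts, while 5 of the 71 other wells did.

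**Figure D1:**
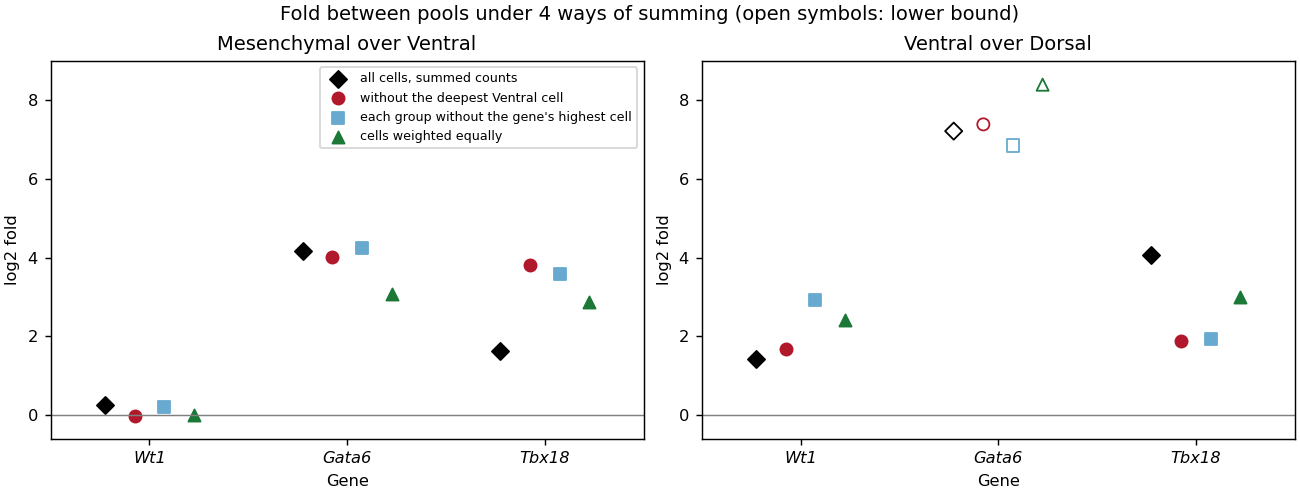
Log2 folds of Wt1, Gata6 and Tbx18 for Mesenchymal over Ventral (left) and Ventral over Dorsal (right), from summed counts (diamonds), without the deepest Ventral cell (circles), without each group's highest cell for the gene (squares) and with cells weighted equally (triangles). Tbx18 moves most when Ventral 41 is left out, with 3.82 without it and 1.62 with it on the left. The open symbols for Gata6 on the right are lower bounds against 3 Dorsal counts. These bounds have no pseudocount, so their height cannot be compared with the other folds.

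Mesenchymal exceeded Ventral by at least 2-fold for 2 of the 3 genes (Gata6 and Tbx18), and did so for 12.9% of 13065 measured genes (10.7% without Ventral 41). The share at least 2-fold lower was 17.1% (17.8% without Ventral 41), and none of the 3 genes was among them. All 3 were at least 2-fold higher in Ventral, set against Dorsal, where 8.30% of 13152 measured genes were (6.83% without Ventral 41) and 10.1% were lower (6.57% without it). In Mesenchymal set against Dorsal all 3 were higher as well, where 9.68% of 13114 genes were higher and 17.5% lower. Set against HSC, Mesenchymal had all 3 genes higher by this rule (22.6% of genes higher, 16.6% lower), and so did Ventral (24.5% higher, 14.1% lower), also without Ventral 41. These comparisons share pools, so a value of the Ventral pool enters several of them. In the first pair of comparisons the median gene stood near 0, at -0.09 for Mesenchymal over Ventral and -0.14 for Ventral over Dorsal.

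Counted by cells, each of the 3 genes had its highest share of positive cells in the Mesenchymal pool. For Wt1 the limits of this share overlapped those of Ventral. A cell was called positive with at least 5 estimated counts, after thinning to 310000 counts so that depth did not differ. Wt1 was positive in 21 of 69 Mesenchymal cells (30.4%, 95% limits 19.9 to 42.7) and 15 of 80 Ventral cells (18.8%, 10.9 to 29). It was positive in 3 of 92 Dorsal cells (3.26%, 0.68 to 9.23) and 0 of 64 HSC cells. In HSC, 3 cells would be 4.69% and the exact upper limit is 5.60%. Gata6 was positive in 41 of 69 Mesenchymal cells (59.4%, 46.9 to 71.1) and 6 of 80 Ventral cells (7.5%, 2.80 to 15.6). It was positive in 0 of 92 Dorsal cells (3.26% at 3 cells, exact upper limit 3.93%) and 2 of 64 HSC cells (3.12%, 0.38 to 10.8). Tbx18 was positive in 34 of 69 Mesenchymal cells (49.3%, 37 to 61.6), 5 of 80 Ventral cells (6.25%, 2.06 to 14), 0 of 92 Dorsal cells and 0 of 64 HSC cells. Thinned to 150000 counts, Wt1 was positive in 16 of 83 Mesenchymal cells (19.3%, 11.4 to 29.4) and 14 of 88 Ventral cells (15.9%, 8.98 to 25.2). Their limits again overlapped. Left out at 310000 as too shallow were 19 Mesenchymal, 9 Ventral, 1 Dorsal and 1 HSC cells.

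Without thinning, the positive cells were 25, 17, 4 and 1 for Wt1 in Mesenchymal, Ventral, Dorsal and HSC, 58, 8, 0 and 4 for Gata6, and 47, 6, 1 and 0 for Tbx18. All counts of cells below are unthinned. At least 1 Wt1 count was found in 50 of 88 Mesenchymal, 34 of 89 Ventral, 29 of 93 Dorsal and 18 of 65 HSC cells. Of these cells 25, 17, 4 and 1 were the positive ones, and the rest held low values of under 5 counts. HSC-sorted cells, a blood population, had a like share of such low values as Dorsal cells. A value under 5 counts is not called positive here, and whether it is background or low expression was not tested. Gata6 had no such low tail in Dorsal, where every cell was at 0.

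**Figure D2:**
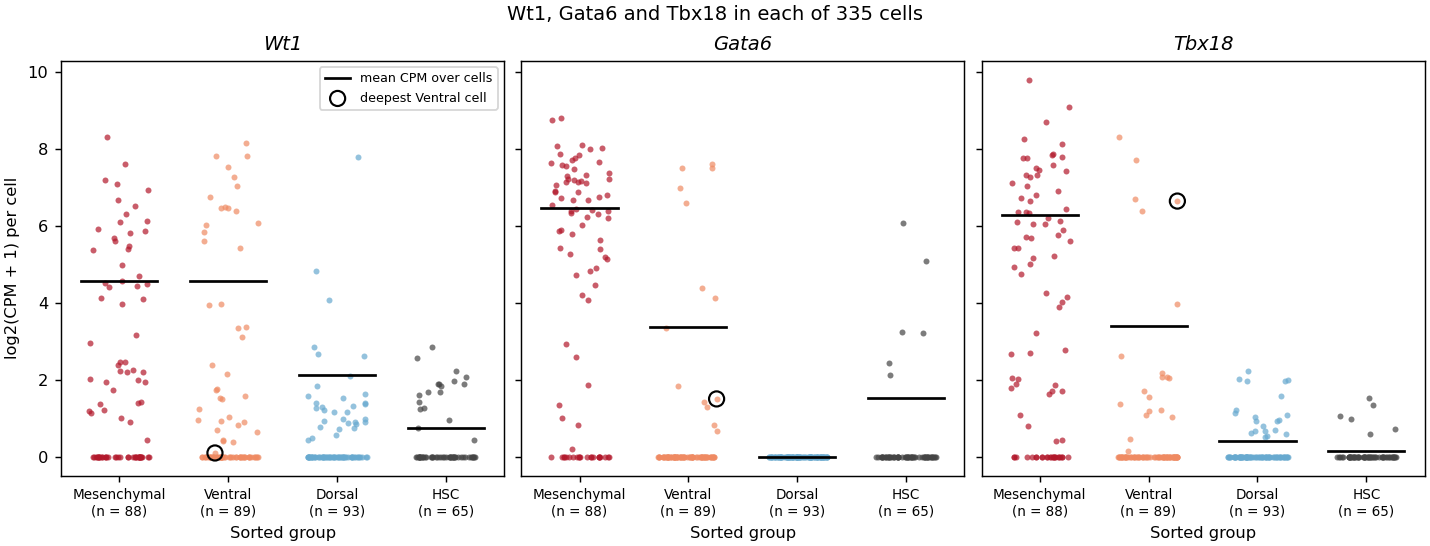
Each point is 1 cell, with log2(CPM + 1) on the vertical axis for Wt1, Gata6 and Tbx18 and the 4 sorted groups on the horizontal axis; black bars are the mean CPM over cells and the ring marks Ventral 41. Gata6 is at 0 in every Dorsal cell, 1 Dorsal cell stands apart for Wt1, and most Ventral cells are at 0 for Tbx18.

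Within the Ventral pool, most Wt1-positive cells carried Eya1, Six2, Sall1 and Pax2, and few carried Sox10 or Gata3, which many other cells of the pool held. The 17 cells held between 13.1 and 233 counts, and their median level was 87.9 CPM. Sox10, the neural crest and glial factor, was positive in 2 of these 17 cells and in 42 of the 72 other Ventral cells. Gata3 was positive in 4 of 17 and 52 of 72. Not every nephrogenic gene went with Wt1: the receptor gene Ret, of the same nephrogenic list as Eya1, was positive in 0 of 17 and 31 of 72, and Osr2, another gene of that list, in 1 of 17 and 3 of 72. The median total was 650739 counts in Wt1-positive cells and 560882 in the others, and whether depth contributes was not tested.

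Of the 17 cells, 13 had Wt1 without Gata6 or Tbx18. All 13 were positive for Eya1, a transcriptional co-activator needed for kidney formation; 12 were positive for Six2, which maintains nephron progenitors, 12 for Sall1, a zinc finger factor of the same tissue, and 10 for Pax2, a paired-box factor of the nephric lineage. Each of the 13 had at least 2 of these 4 genes, and 12 had at least 3. Among the 65 Ventral cells with none of Wt1, Gata6 and Tbx18, 26 were positive for Eya1, 3 for Six2, 4 for Sall1 and 1 for Pax2, and 3 had at least 2 of the 4. Cells among the 13 were also positive for Hoxd11 (12 cells) and Hoxa11 (11), which pattern the kidney region, for Gdnf (9), the ligand that draws out the ureteric bud, and for Foxc2 (12), Meox1 (11) and Uncx (10), factors of paraxial and intermediate mesoderm. In the 65 cells without the 3 genes these were positive in 5, 5, 1, 2, 2 and 1 cells in the same order. The median total was 827589 counts in the 13 cells and 558998 in the 65, and whether depth contributes was not tested. These marker genes come from lists of nephrogenic and mesodermal genes, and were picked from those lists after their values were seen.

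The sort marker was present in most of these cells: Ngfr was positive in 10 of the 13, and in 33 of the 65 cells without the 3 genes. Pax8, which is also a nephric gene, had at least 5 counts in 335 of 335 cells, HSC cells included, and so marked no cell type here. Smooth muscle Acta2, Pdgfra, Pdgfrb and the nephrogenic Osr2 were positive in 0 of the 13 cells. In the 65 cells without the 3 genes they were positive in 3, 3, 2 and 0 cells in the same order. The pool was sorted as Pdgfrb-. Ventral 56, the highest, held 233 Wt1 counts together with 49 of Pax2, 647 of Eya1, 753 of Sall1 and 2459 of Aldh1a2, an enzyme that makes retinoic acid. Ventral 16 held 191 Wt1 counts (82.8 CPM) with 83.5 of Pax2 and 1221 of Sall1. By CPM the highest Ventral cell for Wt1 was Ventral 47, at 283 CPM.

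Across the 89 Ventral cells, and chosen after the values were seen, the 8 genes whose log2 levels followed Wt1 most closely were Bmper (r = 0.77), Plat (0.75), Rspo1 (0.75), Foxc2 (0.73), Shisa3 (0.73), Col26a1 (0.69), Cdh11 (0.69) and Six2 (0.69). Bmper encodes a secreted modulator of BMP signalling and Rspo1 a Wnt agonist of gonad and coelomic epithelium. Rspo1 was positive in 11 of the 17 Wt1-positive cells and in 0 of the 72 others. Without Ventral 41 and its index-sharing wells, Bmper kept first place (r = 0.80), and the 8 genes ranked between 1 and 12. These are correlations over cells of 1 library, which share depth and pool.

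The 1 strong Wt1 cell of the Dorsal pool also held Pax2, Eya1, Sall1 and Meox1. Dorsal 61, with 425 Wt1 counts, held 71.7 counts of Pax2, 1051 of Eya1, 750 of Sall1, 656 of Aldh1a2 and 60.5 of Meox1, with 777 of Ngfr and 7.84 of Sox10. The other 3 Dorsal cells with at least 5 Wt1 counts held 0 of Pax2 and 140 to 742 of Sox10, with 7.86 to 14.1 of Wt1.

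The other 4 Wt1-positive Ventral cells had Gata6 or Tbx18 as well, and none of the 4 was positive for Eya1, Six2, Sall1 or Pax2. Their median total was 448229 counts, against 827589 in the 13 cells with Wt1 alone. All 4 were positive for the collagen gene Col1a1, and 3 were positive for Pdgfra and 3 for Acta2. Of the sort genes, Ngfr was positive in 1 of the 4 and Pdgfrb in 2 of the 4. Ventral 17 carried all 3 genes, with 130 counts of Wt1, 104 of Gata6 and 184 of Tbx18. It also held 470 of the 473 Ventral counts of Upk3b, which encodes a uroplakin found in mesothelium, together with 998 of Aldh1a2, 29.1 of Gata4 and 38 of Krt18. Its total was 577211 counts and it held 4.88 counts of Ngfr. Upk3b was the single coelomic marker measured of the 6 chosen, and it had 0 counts in the Mesenchymal, Dorsal and HSC pools. By this marker, 1 of the 335 cells had the coelomic gene at 5 counts or more.

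Ventral 41 was of another kind. It held 2033 counts of Tbx18 and 37.5 of Gata6 in a total of 20481041. It also held 9944 counts of Nr5a1, the nuclear receptor that specifies adrenal cortex and gonad, 9222 of Hsd3b1 and 5765 of Cyp11a1, which encode enzymes of steroid synthesis, and 3424 of Osr2, a nephric mesenchyme factor. Those were 99.0%, 99.4%, 99.1% and 95.1% of all Ventral counts of these genes. Star, which carries cholesterol into mitochondria, stood at 1.67 counts in it. Ventral 58, with 32.7 Tbx18 and 61.8 Gata6 counts, held 42 of Nr5a1 and 91.1 of Osr2 in a total of 317598. Ventral 58 shares no i7 or i5 index with Ventral 41.

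The remaining Gata6 or Tbx18 cells of the Ventral pool were mixed. Ventral 21, with 36 counts of Gata6 in a total of 3934349 (9.14 CPM), held 1278 of Ptprc and 7276 of the macrophage receptor gene Csf1r. Ventral 57, with 53.7 of Gata6 (96.5 CPM), held 206 of the endothelial cadherin gene Cdh5, 52.1 of Gata4 and 83.8 of Procr. Ventral 31, with 44.7 of Tbx18, held 263 of Sox10 and was the single Tbx18-positive cell of the pool positive for that gene. Ventral 38 held 16.1 counts of Gata6 with 186 of Pdgfra and 221 of Col1a1, and Ventral 55 held 8.25 of Tbx18 with 313 of Ptprc. Among the 7 Ventral cells positive for Gata6 or Tbx18 but not for Wt1, Ngfr was positive in 3 and Pdgfrb in 1.

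**Figure D3:**
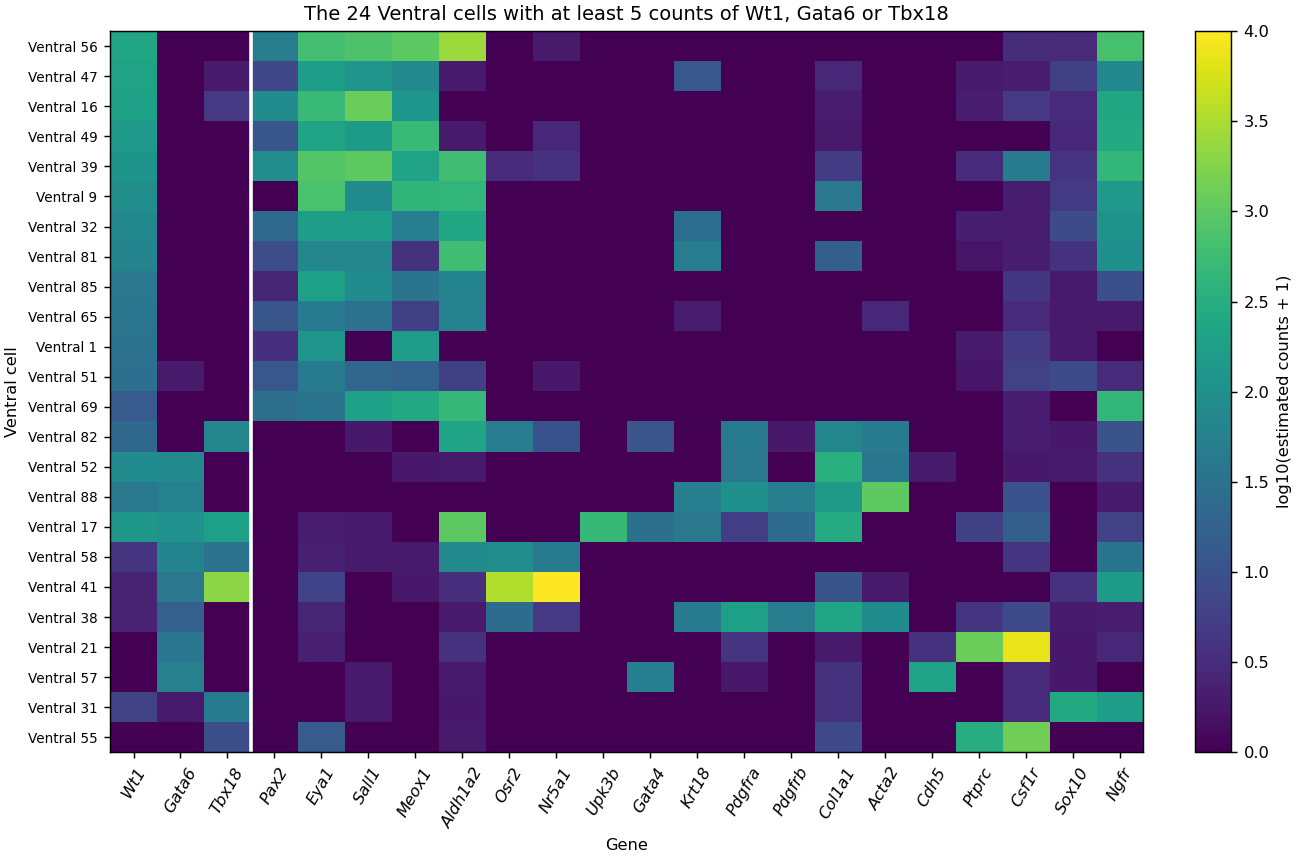
Rows are the 24 Ventral cells with at least 5 counts of Wt1, Gata6 or Tbx18, columns are genes, and colour is log10(estimated counts + 1). The 13 upper cells, with Wt1 alone, share Eya1 and mostly Pax2, Sall1 and Meox1, and have under 5 counts of Pdgfra and Acta2; Ventral 41 stands out for Osr2 and Nr5a1 and Ventral 17 for Upk3b.

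In the HSC pool Gata6 was positive in 4 cells, HSC 29, 60, 61 and 50, with 61.4, 35.9, 11.3 and 7.07 counts. All 4 were positive for Cdh5, as were 55 of the 61 other HSC cells. HSC 29 held 383 counts of Cdh5, 634 of Procr and 281 of Ptprc. Tbx18 did not exceed 1.83 counts in any HSC cell, and Wt1 did not exceed 5.44.

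In the Mesenchymal pool the 3 genes combined in every way, with 58 of 88 cells positive for Gata6, 47 for Tbx18 and 25 for Wt1. Wt1 ran from 0 over a median of 1.60 to 319 CPM, Gata6 from 0 over 61 to 444 CPM, and Tbx18 from 0 over 22.1 to 889 CPM. No single cell decided a level: the highest held 16.2% of the Wt1 counts, 16.1% of the Gata6 counts and 19.1% of the Tbx18 counts. The 5 highest cells held 55.1%, 48.8% and 46.4% in the same order. In the Ventral pool the 5 highest held 57.1% of the Wt1 counts. Of the 88 cells, 8 were positive for all 3 genes, 25 for Gata6 and Tbx18 only, 17 for Gata6 only, 10 for Tbx18 only, 8 for Wt1 and Gata6, 4 for Wt1 and Tbx18, 5 for Wt1 only and 11 for none. Cells with Gata6 and Tbx18 together numbered 33 of the 58 Gata6-positive cells and of the 47 Tbx18-positive cells.

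Correlations over the 88 cells were weak: r = 0.21 for Gata6 with Tbx18, -0.14 for Wt1 with Gata6 and -0.05 for Wt1 with Tbx18. In sparse counts such values are no finding. All points share 1 library. The wells with even i7 index gave a higher Wt1 level than those with odd i7 index, at 25.2 and 7.41 CPM, while Gata6 stood at 94.2 and 87.6 CPM and Tbx18 at 80.4 and 54.1 CPM in the same sets.

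**Figure D4:**
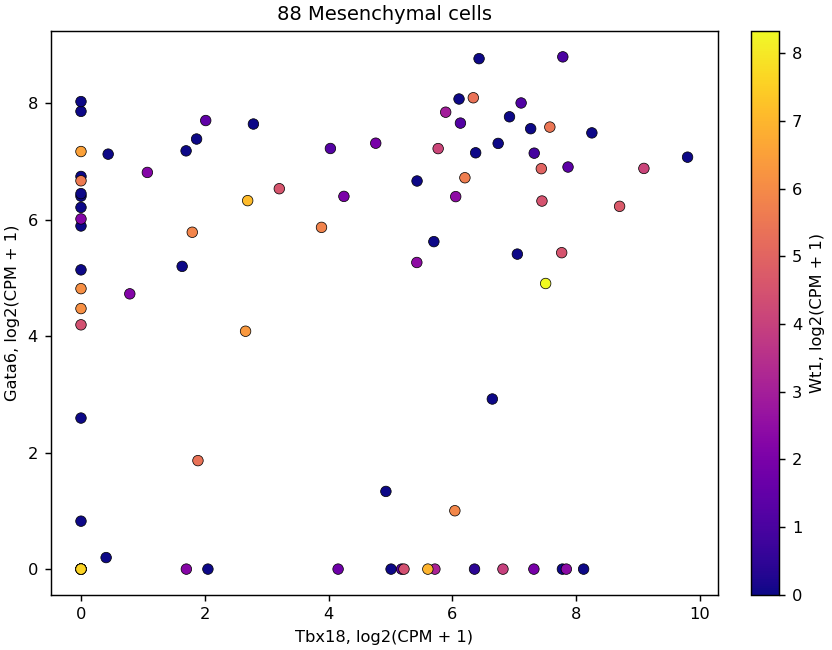
Each point is 1 of the 88 Mesenchymal cells, with Tbx18 on the horizontal and Gata6 on the vertical axis as log2(CPM + 1) and colour for Wt1 on the same scale. Cells with both Gata6 and Tbx18 (33 of 88) fill the upper right, and cells with Wt1 lie in all parts of the plot.

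Few or no Wt1-positive mesenchymal cells carried Eya1, Six2, Pax2 or Sall1, while some carried other genes of the nephrogenic list. In the whole Mesenchymal pool Pax2 was positive in 0, Eya1 in 1 and Six2 in 1 of 88 cells, and Sall1 was positive in 1 of the 25 Wt1-positive cells and 11 of the 63 others. All 25 Wt1-positive cells were positive for Col1a1, as were all 63 others, and Pdgfra was positive in 21 of 25 and 52 of 63. Aldh1a2 was positive in 13 of 25 and 8 of 63, Foxc2 in 22 of 25 and 48 of 63, and Hoxd11 in 9 of 25 and 9 of 63. Hoxa11 was positive in 6 of 25 and 7 of 63, and Gdnf in 1 of 25 and 9 of 63. The hedgehog receptor gene Ptch1 was positive in 4 of 25 and 24 of 63, Foxf2 in 0 of 25 and 12 of 63, and Acta2 in 12 of 25 and 41 of 63. The median total was 463069 counts in Wt1-positive cells and 529956 in the others.

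By the naming rule, the 8 genes most like Wt1 over the 88 Mesenchymal cells were 2810021J22Rik (r = 0.52), Rarres2 (0.43), Tmtc4 (0.43), Alx1 (0.42), Scube1 (0.42), Stra6 (0.42), Ctbp2 (0.40) and Gfra3 (0.40). Stra6 encodes a cell surface receptor that takes up retinol. It was positive in 11 of the 25 Wt1-positive cells, of 25 Mesenchymal cells in all. Without the deepest Mesenchymal cell and the wells with an index in common with it, Scube1 stood at rank 40 and Alx1 at rank 23, and the first 2 genes kept their ranks.

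Gata4 and Gata5 were found mostly in the Gata6-positive mesenchymal cells. Gata4 was positive in 18 of the 58 Gata6-positive cells and in 0 of the 30 others, and Gata5 in 25 of 58 and 2 of 30. Lhx9, a factor of the gonadal ridge, was positive in 11 of 58 and 2 of 30, Isl1 in 21 of 58 and 5 of 30, and Rgs5, a pericyte gene, in 42 of 58 and 13 of 30. In the other direction Tbx1 was positive in 2 of 58 and 14 of 30, Foxd1, a factor of kidney stroma, in 16 of 58 and 21 of 30, and Foxf2 in 2 of 58 and 10 of 30. Pax1, a factor of the ventral somite, was positive in 0 of 58 and 6 of 30. Median totals were 471349 counts in Gata6-positive cells and 524146 in the others, and whether depth contributes was not tested.

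The genes most like Gata6 by the rule were Shisa3 (r = 0.54), Itga6 (0.54), Tnni1 (0.54), Ecm1 (0.52), Nrg1 (0.49), Asb4 (0.49), the mitochondrially encoded ND5 (0.49) and Dap (0.48), each over the 88 cells. Tnni1 encodes a troponin subunit of slow muscle and was positive in 36 of the 58 Gata6-positive cells, of 41 Mesenchymal cells in all. Nrg1, a ligand of ErbB receptors, was positive in 25 of the 58, of 28 in all. The 8 genes ranked between 1 and 10 in the 71 cells left without the deepest cell and those wells.

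Tbx18-positive mesenchyme had fewer cells with contractile genes. Cnn1, which encodes calponin, was positive in 7 of the 47 Tbx18-positive cells and 22 of the 41 others, Myh11 in 3 of 47 and 9 of 41, Acta2 in 22 of 47 and 31 of 41, and Tagln in 25 of 47 and 32 of 41. Pdgfrb was positive in 37 of 47 and 33 of 41, and Rgs5 in 29 of 47 and 26 of 41. Snai1, a factor of mesenchymal transition, was positive in 32 of 47 and 18 of 41, Sall1 in 10 of 47 and 2 of 41, Gata4 in 13 of 47 and 5 of 41, and Lhx9 in 10 of 47 and 3 of 41. Median totals were 540722 and 460003 counts, and whether depth contributes was not tested. These co-detected genes too were picked from the lists after their values were seen.

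The genes most like Tbx18 had lower r than those of Gata6: Trim39 (0.40), Smad6 (0.37), Asb1 (0.36), Cog3 (0.36), Vps11 (0.35), Angpt1 (0.35), Sall1 (0.34) and Luc7l (0.34) over the 88 cells. Smad6, an inhibitor of BMP signalling, was positive in 28 of the 47 Tbx18-positive cells, of 39 Mesenchymal cells in all, and Angpt1, which encodes a vascular growth factor, in 22 of 47, of 27 in all. In those 71 cells, Trim39 stood at rank 29 and Luc7l at rank 95, and Asb1 fell under the minimum of positive cells.

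Related factors had their own order of pools. Gata4 (16.2, 0.83, 0.64 and 0.33 CPM in Mesenchymal, Ventral, Dorsal and HSC) and Gata5 (29.2, 1.34, 0.36 and 0.13 CPM) were highest in the Mesenchymal pool, like Gata6. Gata2 (3.27, 34.1, 17.8 and 67.6 CPM), the blood and sympathetic factor, and Gata3 (18, 120, 99.4 and 8.07 CPM) were lower in Mesenchymal than in Ventral. Of 7 measured genes of the GATA list, Gata6 not counted, 3 were at least 2-fold higher in Mesenchymal than in Ventral and 2 lower, with a median log2 fold of 0.82; Zfpm2, a cofactor of GATA proteins, was the third higher gene (16.7 against 1.25 CPM). For Ventral over Dorsal none of the 7 passed 2-fold and the median was 0.27; without Ventral 41, Gata2 passed it.

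Among the other T-box genes Tbx1 and Tbx5 (4.30 against 0.84 CPM) were higher in Mesenchymal than in Ventral. Tbx1 stood at 26.6 CPM in Mesenchymal with 0 counts in Ventral, at least 981-fold higher against 3 counts over the Ventral pool, and at 1.65 CPM in Dorsal and 4.27 CPM in HSC. Tbx1 was positive in 2 Gata6-positive mesenchymal cells and 14 others, as given above, and was positive in 9 of the 47 Tbx18-positive cells and 7 of the 41 others. Tbx20 (7.01 against 142 CPM), Tbx2 (2.40 against 29.4 CPM) and Tbx3 (3.95 against 41.5 CPM) were lower in Mesenchymal than in Ventral. Of 7 measured T-box genes, Tbx18 not counted, 2 were higher in Mesenchymal by at least 2-fold and 4 lower (3 lower without Ventral 41), with a median log2 fold of -1.09. For Ventral over Dorsal 1 (Tbx20) was higher and 1 (Tbx1) lower, with a median of 0.02. The measured EGR genes, zinc finger relatives of Wt1, were Egr1 (234 against 94.3 CPM in Mesenchymal and Ventral) and Egr2 (1.53 against 7.32 CPM), both immediate early genes. For Ventral over Dorsal 1 of these, Egr2, was at least 2-fold higher (7.32 against 2.94 CPM) and 0 lower.

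**Figure D5:**
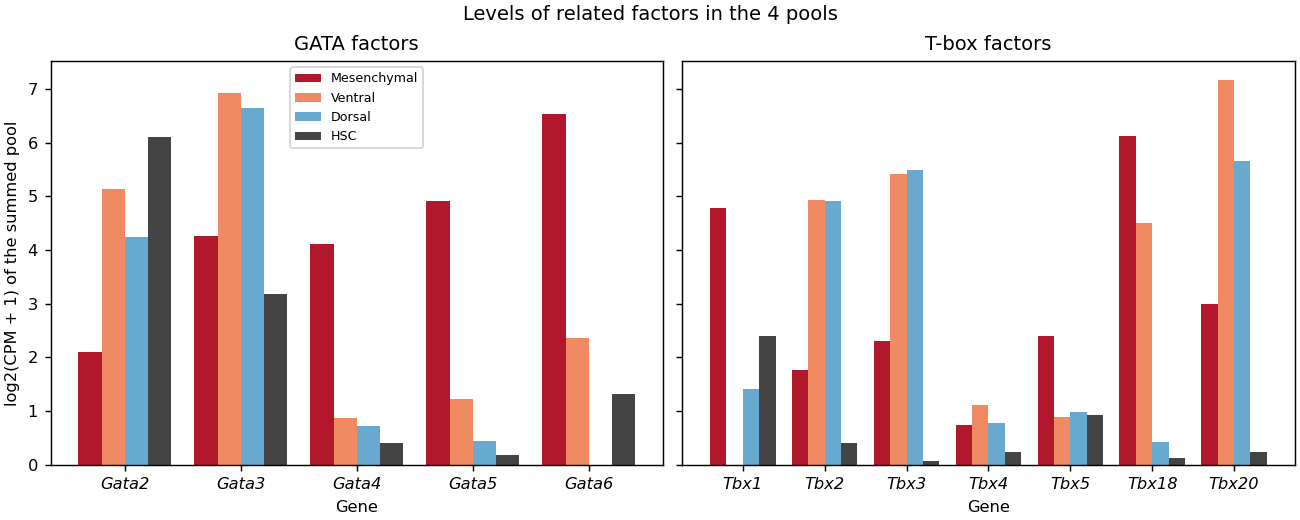
Bars give log2(CPM + 1) of the summed pool for GATA factors (left) and T-box factors (right) in the Mesenchymal, Ventral, Dorsal and HSC pools. Gata4, Gata5 and Gata6 are highest in Mesenchymal and Gata3 in Ventral; bars should be compared within a gene, since levels are not scaled by gene length.

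The counts for the wider lists stand beside 8.30% of all measured genes higher and 10.1% lower in Ventral set against Dorsal (6.83% and 6.57% without Ventral 41), and 12.9% higher and 17.1% lower in Mesenchymal set against Ventral (10.7% and 17.8%). In Ventral set against Dorsal, 8 of 13 measured nephrogenic genes were at least 2-fold higher and 0 lower, with a median log2 fold of 1.69 (8 and 0, and 1.56, without Ventral 41). Osr2 (32.5 CPM) had 0 counts in Dorsal, at least 1176-fold higher in Ventral, and at least 70.1-fold (1.94 CPM) without Ventral 41. Hoxd11 (8.67 against 0.37 CPM), Six2 (17.6 against 3.46 CPM) and Hoxa11 (13.9 against 2.77 CPM) followed. Others of the list lay below 0 on the log2 scale: Pax8 at -0.53 (-0.30 when Ventral 41 is left out), Wnt4 at -0.31 (-0.09) and Ret at -0.26 (0.03). Among 11 measured coelomic and mesothelial genes 9 were higher and 0 lower, with a median of 1.66; without Ventral 41 it was 8 of 10. Aldh1a1 (71.6 CPM in Ventral, 0 counts in Dorsal) had 99.5% of its Ventral counts in Ventral 41. Upk3b and Muc16 were each positive in 1 of the 17 Wt1-positive Ventral cells and in 0 of the 72 others. Krt7 was positive in 1 of these 17, 5 of these 72 and 13 of 93 Dorsal cells, and Krt8 in 2, 2 and 3. Aldh1a2 was positive in 14 of 89 Ventral and 2 of 93 Dorsal cells, and Rspo1 in 11 of 89 and 3 of 93.

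For Mesenchymal over Ventral, 15 nephrogenic genes gave 5 higher and 7 lower (4 and 6 without Ventral 41), with a median log2 fold of -0.58. Eya1 (0.80 against 58.9 CPM) and Six2 (0.45 against 17.6 CPM) were lower in Mesenchymal, Ret had 0 counts there against 34.4 CPM in Ventral, and Wnt11 (6.02 CPM) had 0 counts in Ventral. Of 11 coelomic genes 0 were higher and 7 lower (1 and 7 without Ventral 41), with a median of -1.47, and Upk3b, Muc16 and Podxl had 0 counts in Mesenchymal. The 12 gonadal and adrenocortical genes gave 5 higher, among them Gata4, Zfpm2 and Lhx9 (6.96 against 0.43 CPM), and 4 lower, with Nr5a1 at 0.013 against 90.8 CPM (1.12 CPM in Ventral without Ventral 41). Without Ventral 41 it was 5 and 2 of 10 measured. The same list gave 3 higher and 0 lower of 9 for Ventral over Dorsal, and 1 and 0 of 7 without Ventral 41.

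Lists of mesenchymal genes had medians above 0 in the Pdgfrb+ pool. Of 14 ureteric and interstitial genes 6 were higher and 2 lower in Mesenchymal than in Ventral (6 and 3 without Ventral 41), with Foxd1 (29.3 against 0.32 CPM) and Pdgfra (137 against 5.99 CPM), with a median log2 fold of 0.89. Epicardial and mural genes gave 10 and 2 of 14, with a median of 2.86. The higher ones include Pdgfrb (127 against 1.58 CPM), by which these pools were sorted. Lateral plate and splanchnic genes gave 7 and 1 of 13, with a median of 1.46. Of 8 somite genes 4 were higher and 3 lower (4 and 4 without Ventral 41), with a median of 0.44. Pax1 (16.4 against 0.19 CPM) and Pax9 (11.8 against 0.016 CPM) were higher in Mesenchymal, and Uncx (0.64 against 10.7 CPM) and Pax3 (0.59 against 6.30 CPM) were lower. For Ventral over Dorsal these 4 lists gave 5 higher and 0 lower of 12, 4 and 2 of 12, 5 and 0 of 12, and 3 and 0 of 5 (4 and 0 without Ventral 41 in the last). The 12 measured genes of a list of described Wt1 targets gave 1 higher and 4 lower for Mesenchymal over Ventral (3 and 4 without Ventral 41), with Wnt4 the higher one (20.1 against 3.68 CPM), and 5 higher and 0 lower for Ventral over Dorsal.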

How the data were processed

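The authors deposited a table of estimated counts per gene, and a log2 table. The submitters' processing notes name kallisto 0.43.1 and build GRCm38. The annotation, the step from transcripts to genes and any filters are not given in the sources used here. For all but 43 entries, a deposited log2 value is log2 of 1 plus the estimated count over a cell's size factor; the factors ran from 0.098 to 19.6. Of values above 0 in the count table, 8.00% were under 1. Entries without a symbol (661 of 14109, 2.96% of counts) were left out of totals.

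CPM is the group sum of a gene per 1000000 counts of all entries with a symbol; folds are log2 ratios of (CPM + 1), and lists use genes with at least 100 counts over the 2 pools. For lower bounds a pool at 0 was set at a floor of 3 counts over the pool, and no pseudocount was added. Since a group is 1 pool, no differences were tested. Likeness is Pearson's r of log2(CPM/10 + 1) over the cells of the group with the most positive cells, among genes with at least 5 counts in 10% of them; the 8 highest are named, and up to 4 genes of a list by the size of the fold. Other genes were picked after their values were seen. The members and lists were chosen with earlier results of these data known. List genes that no entry names are not analysed here. A list gene is not reported here. Doublets were not called in these plate-sorted cells; 55 index pairs occur in all 4 pools. The largest r between cells of a group was 0.78. Functions were tested on simulated data. Alternatives left out cells or wells, weighted cells equally, used the authors' size factors, left Dock10 and Cep97 out of totals and changed the pseudocount, minimum count, positive threshold and thinning. Software was Python 3.11.15, numpy 2.4.6, pandas 2.3.3 and scipy 1.17.1.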

Additional observations from a re-analysis of the deposited data

How the results depend on the processing

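Every alternative left Gata6 and Tbx18 higher in Mesenchymal than in Ventral and all 3 genes higher in Ventral than in Dorsal, while the log2 fold of Wt1 for Mesenchymal over Ventral ran from -0.03 to 0.35. Log2 folds for Mesenchymal over Ventral that moved beyond counting error were, without Ventral 41, -0.027 for Wt1 and 3.82 for Tbx18; without it and its index-sharing wells, 3.84 for Gata6 and 3.61 for Tbx18; without each group's highest cell, 3.59 for Tbx18; with cells weighted equally, 0.0023 for Wt1, 3.08 for Gata6 and 2.86 for Tbx18; with the authors' size factors, 3.32 for Gata6 and 3.09 for Tbx18; without Dock10 and Cep97, 1.72 for Tbx18; with a pseudocount of 0.1, 4.43 for Gata6. For Ventral over Dorsal they were, without Ventral 41, 1.69 for Wt1 and 1.88 for Tbx18; without it and those wells, 2.09 for Tbx18; without each group's highest cell, 2.91 for Wt1 and 1.93 for Tbx18; with equal weights, 2.43 for Wt1 and 3.01 for Tbx18; with size factors, 2.43 for Wt1 and 3.04 for Tbx18; with a pseudocount of 0.1, 5.64 for Tbx18. The log2 bound for Gata6 was 7.22 and became 7.39, 7.62, 6.85 and 8.40 under the first 4 of these. The last 2 give no bound. This bound has no pseudocount and is not on the scale of the folds of Wt1 and Tbx18. Genes at least 2-fold lower in Ventral than in Dorsal numbered 1330, and 863 without Ventral 41. Apart from settings that leave out Ventral 41 or the highest cell, the cause was not tested.

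Shares of positive cells stayed within their limits in 41 of 48 alternatives. Thinned to 150000 counts, Wt1 was positive in 19.3% of Mesenchymal and 15.9% of Ventral cells. At a threshold of 1 count Wt1 was positive in 47.8%, 36.2%, 17.4% and 15.6% of Mesenchymal, Ventral, Dorsal and HSC cells, and Tbx18 in 68.1% of Mesenchymal and 5.43% of Dorsal cells. At 10 counts the 13 Ventral cells with Wt1 alone remained 13. Values near 5 counts are limited by depth, and nothing here measures variation between embryos. No paired analysis was possible because cells carry no shared animal or replicate number and no test was made.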
